A study of Mus musculus with 18 samples.

Results

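The lysosomal hydrolases and proton pump described here are 40 named genes: 16 subunits and accessory proteins of the vacuolar proton pump (V-ATPase), 9 cathepsins and 15 other lysosomal enzymes, membrane proteins, cofactors and regulators. They were picked by gene symbol from a table of 55487 genes, and each symbol stood on 1 gene. Of the 40, 39 had enough counts to be tested, among the 15996 genes tested in all. Ctss, the gene of cathepsin S, was listed at 0 counts in every library and was not tested. The lysosome is the acidic compartment in which microglia, the resident phagocytes of the brain, break down what they engulf. The V-ATPase pumps protons into it through a membrane-embedded V0 sector driven by a cytosolic, ATP-hydrolysing V1 sector. The low pH activates cathepsins, which are proteases, and other hydrolases, and the transcription factor TFEB switches on many of these genes together.

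RNA was read from BV2, a mouse microglial line that grows without limit in culture, in 6 groups of 3 libraries. The cells carried the label BAK1-KD or NC, and each was taken untreated at 0 h, then 12 h and 24 h into oxyhemoglobin. Oxyhemoglobin is the oxygen-carrying blood protein, used at a labelled 10 mM and added 12 h after plating. The labels do not say what NC stands for, by what means Bak1 was to be lowered, or whether either line is 1 clone. Every group shares the BV2 background. No untreated cells were sampled at 12 h or 24 h, so that treatment and time in culture cannot be told apart. The labels do not tell whether the 3 libraries of a group grew as separate cultures. The p-values thus cover the spread between libraries alone, which may be technical.

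Library totals were 4361313 to 6008810 counts, and the members took 1.89 to 2.94% of the counts left after CT010467.2, a single gene that took 12.9 to 25.3%. Bak1, the gene the KD label names, had 39 counts in the KD-labelled and 25 in the NC libraries, which makes a rate ratio of 1.56 (exact 95% interval 0.920 to 2.69, counting error only). Of its exon bases, 14.0% belong to 1 annotated transcript only. The count thus showed no lower Bak1 in the KD-labelled libraries. It did not check the label, and KD below means the libraries labelled KD. Of 12 microglia markers, Spi1 (mean 301 CPM) and Ptprc (138 CPM) made up most of a sum of 499 to 739 CPM in KD and 389 to 575 CPM in NC. Tyrobp, Cx3cr1, Fcgr3 and Aif1 had 187, 191, 123 and 43 counts in all, P2ry12 had 8, and the 4 globin genes had 0. In bulk RNA, fewer cells of a type and less RNA per cell cannot be told apart. Within each group the library numbered 2 often stood apart. It was the lowest of the 3 for 16 members, and the highest for 2, in all 6 groups. The share over all genes was not counted, so this is not read as a trait of the members. Library 2 also had the highest TMM scaling factor of its group in all 6 groups (1.06 to 1.14).

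At 12 h of oxyhemoglobin, averaged over both lines, 10 of the 39 tested members rose and 5 fell. That is 38.5% of the members, beside 25.2% of all genes tested (13% higher and 12.3% lower). The median member changed by 0.20 on the log2 scale, and the median of all genes lay at 0. At 24 h 4 members were higher and 9 lower than control, or 33.3% beside 17.7% of all genes (9.99% higher and 7.76% lower), with medians of -0.14 and -0.01. From 12 h to 24 h 7 members fell and none rose, or 17.9% beside 8.63% of all genes (5.14% higher and 3.49% lower), with medians of -0.26 and -0.01, and 31 of the 39 log2 differences were negative. Between the lines, averaged over the 3 times, 2 members were higher and 3 lower in KD, 12.8% beside 9.99% of all genes (4.01% higher and 5.98% lower). Members and gene lists were chosen with earlier results of these data known, so such shares describe the lists and are not a test of them. Changes here and below are log2 fold changes ± SE from edgeR's quasi-likelihood test, with p-values adjusted by Benjamini-Hochberg over the 15996 genes and called at 0.05. The count at 12 h was 9 without KD control library 2, and also 9 without KD 12 h library 1. With limma on log2(TPM + 0.1) none rose and 13 fell at 24 h, and the median of all genes moved to -0.11. From 12 h to 24 h that scale called 20 lower, with the median of all genes at -0.19.

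**Figure D1:**
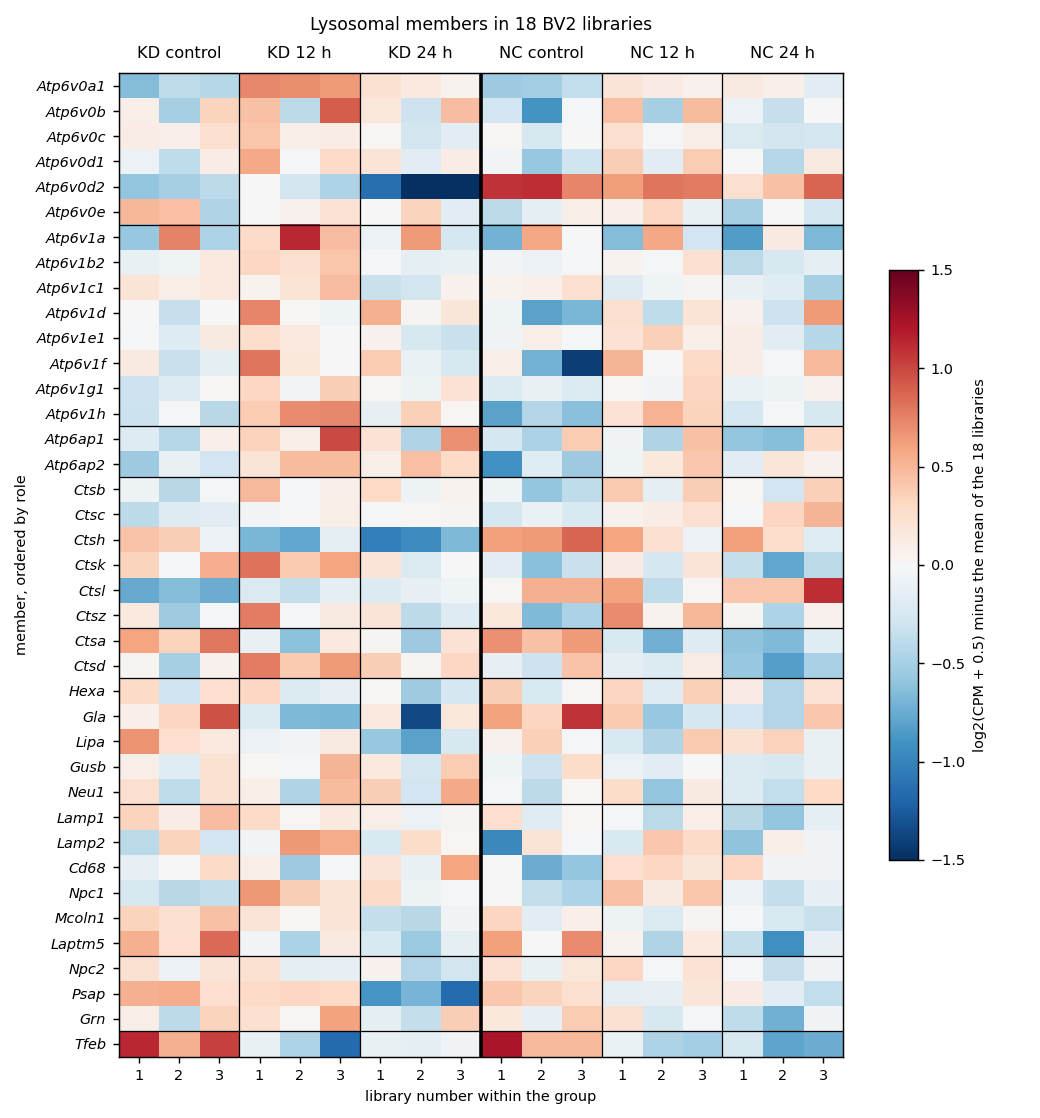
Heat map of the 39 members with counts (rows, ordered by role) in 18 libraries (columns, 3 a group, KD left and NC right). Colour is log2(CPM + 0.5) minus the member's mean over the 18 libraries. Tfeb and Ctsa are highest in the controls, Atp6v0a1 and Atp6v1h are low there, Atp6v0d2 is lower in all 9 KD libraries, and Psap is lowest at 24 h in KD.

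The same tests within each line gave smaller counts. In KD, 5 members rose and 3 fell at 12 h, beside 16% of all genes called (7.93% higher and 8.06% lower). At 24 h in KD 2 were higher and 7 lower than control, beside 9.59% of all genes (5.5% higher and 4.09% lower), and from 12 h to 24 h 3 fell, beside 4.28% (2.81% higher and 1.46% lower). In NC, 4 rose and 2 fell at 12 h, beside 12.2% of all genes (6.69% higher and 5.55% lower), and 2 were higher and 3 lower at 24 h, beside 7.57% (4.66% higher and 2.91% lower). From 12 h to 24 h in NC edgeR called 0 members, beside 2.76% of all genes (1.63% higher and 1.13% lower), with 9 at an unadjusted p under 0.05, and DESeq2 called 2. With the library number as a block the KD counts became 21, 22 and 14 and the NC counts 18, 17 and 13, in the same order of comparisons. The block also raised the share of all genes called, to 28.8%, 21.5% and 12.3% in KD and 24.7%, 18.9% and 11.5% in NC. No call was lost with the block. Single libraries moved several of these counts. The 8 calls at 12 h in KD became 5 without KD control library 1. The 9 calls at 24 h in KD became 4 without KD control library 1, 4 without KD 24 h library 2 and 5 without KD 24 h library 1. The 5 calls at 24 h in NC became 2 without NC control library 3 or NC 24 h library 2, and 3 in 6 other fits, each without 1 of NC 12 h library 3, KD control library 3, KD 12 h library 2 and KD 24 h libraries 1, 2 and 3. On log2(TPM + 0.1), limma called 0 higher and 10 lower at 24 h in KD, and 0 higher and 5 lower at 24 h in NC. It called 8 higher and 2 lower at 12 h in each line.

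Levels are given as CPM, counts scaled by library size, and are compared between groups within a gene, not between genes, for a reason visible in the files. For 38 of the 40 members the deposited gene length equalled the summed exon length of all annotated transcripts (GENCODE M21), as it did for 54374 of 55141 genes matched. The members' counts also went with the share of a gene's exon bases that belong to 1 annotated transcript only. Ctss, with 6 such bases or 0.4% of its exon bases, had 0 counts, and Psap, with 96 bases or 3.5%, had 2094 counts in all 18 libraries together. Cd68 (16.8%) had 671 and Ctsd (18.2%) 2140 counts, while Ctsz, Ctsk, Hexa and Atp6v1g1, each with 1 annotated transcript, had 17468 to 321159. Spearman's rho over the 40 members was 0.61, given as a description. Across all protein-coding genes, 86.2% of the 297 with at most 1% such bases had no count, against 20.4% of the 4899 with 50 to 75%. The share was not lowest at the top end, since 51.4% of the 4333 genes with 100% such bases had no count, as many as with 1 to 10%. How reads that fit several transcripts were counted is not stated by the labels or notes, and the part of this in the results below was not tested. A 0 for Ctss is therefore given as listed, not as absence of its RNA.

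**Figure D2:**
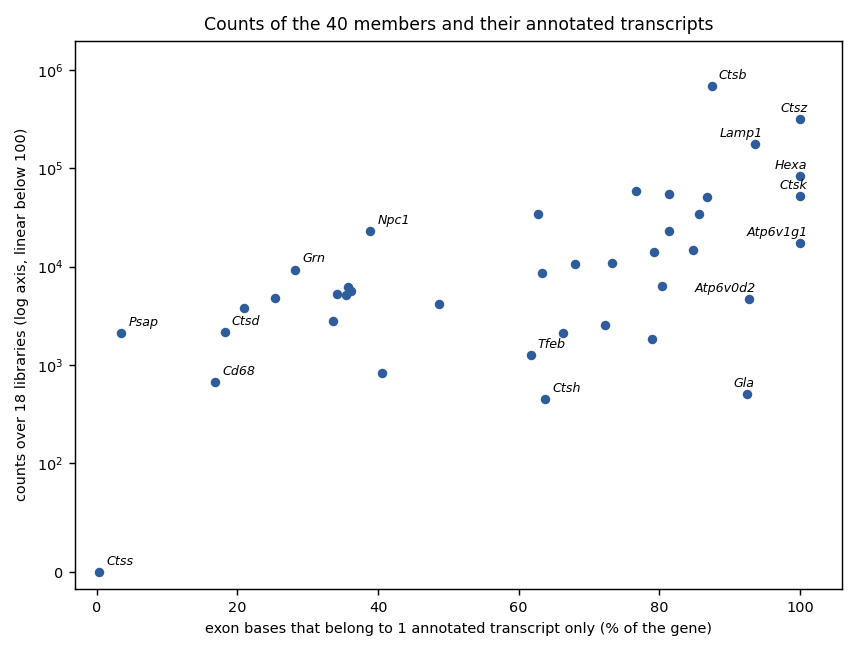
Counts of each of the 40 members summed over 18 libraries (log axis, linear below 100) against the percentage of the gene's exon bases that belong to 1 annotated transcript only. Ctss, at 0.4%, lies at 0 counts and Psap, at 3.5%, at 2094, while Ctsb, Ctsz and Lamp1, all above 85%, lie highest.

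Tfeb, the transcription factor that drives lysosomal gene expression from the nucleus and is held in the cytosol by mTORC1, fell in both lines at both times. The KD libraries had 27.7, 18.1 and 25.8 CPM in controls, then 11.4, 8.87 and 5.25 CPM after 12 h and 11.4, 11.1 and 11.9 CPM after 24 h, with the gene at chr17:47737030-47792419 on the plus strand (GRCm38, GENCODE M21). The NC libraries had 29.6, 17.5 and 17.6 CPM in controls, then 11.5, 8.802 and 8.52 CPM after 12 h and 10.4, 6.97 and 7.18 CPM after 24 h. All 12 treated libraries lay below all 6 controls. The average difference was -1.32 ± 0.20, adjusted p = 1.77e-05 at 12 h and -1.23 ± 0.20, adjusted p = 6.77e-05 at 24 h. By line it was -1.48 ± 0.28, adjusted p = 0.000533 in KD and -1.17 ± 0.28, adjusted p = 0.00598 in NC at 12 h. At 24 h it was -1.05 ± 0.27, adjusted p = 0.0135 in KD (adjusted p = 0.0711 without KD control library 1) and -1.41 ± 0.28, adjusted p = 0.00221 in NC. Between 12 h and 24 h Tfeb did not pass (0.09 ± 0.21, adjusted p = 0.871).

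TFEB binds an E-box, CACGTG, within a longer element found in front of many lysosomal genes, so the promoters of the members were read for it. RefSeq windows (GRCm38.p6, from 250 bases before to 50 after a start) were found for 32 of the 40 members, 38 windows in all, some of which belong to 1 gene. The letters TCACGTGA, an extended E-box that reads the same on both strands, stood in 7 of the 38 windows (18.4%), against 320 of 32851 windows of all genes (0.974%). By gene it was 7 of 32 members (21.9%), against 304 of 27025 genes (1.12%). In other lysosomal genes (the V-ATPase, protease, hydrolase and membrane lists below) it stood in 6 of 82 windows (7.32%). The shorter CACGTG, which TCACGTGA contains, stood in 26.3% of member windows, 20.7% of other lysosomal windows and 7.15% of all windows. The longer form with G before and C after it stood in none of the 38, against 1.22% of other lysosomal windows and 0.326% of all windows. With shares so low, 38 windows cannot show a lack. The 9 matches to TCACGTGA are printed because they show which members carry the element and where. Capitals mark the match, with 10 bases on each side, 5′ to 3′ on the gene's strand.
Atp6v0d1 (chr8:105566051-105566078, minus strand): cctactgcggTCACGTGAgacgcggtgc
Atp6v0e (chr17:26676388-26676415, plus strand): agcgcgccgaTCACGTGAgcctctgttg
Atp6v1a (chr16:44139374-44139401, minus strand): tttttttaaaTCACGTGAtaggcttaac
Ctsa (chr2:164833750-164833777, plus strand): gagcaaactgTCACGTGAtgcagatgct
Ctsa (chr2:164833767-164833794, plus strand): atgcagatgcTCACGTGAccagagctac
Ctsd (chr7:142387909-142387936, minus strand): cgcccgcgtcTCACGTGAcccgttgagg
Gla (chrX:134601216-134601243, minus strand): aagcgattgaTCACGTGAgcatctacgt
Gla (chrX:134601183-134601210, minus strand): gagatctcggTCACGTGAgcaactctcg
Mcoln1 (chr8:3500463-3500490, plus strand): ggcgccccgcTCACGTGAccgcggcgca
The Ctsa pair begin at -13 and 5 from the start in 1 of its windows, so that the stretches printed overlap. The other Ctsa window, by the start of the annotated gene, held no CACGTG. The pair in front of Gla begin at -228 and -195. Atp6v0d1 and Atp6v0e carry the match at the start itself, beginning at -4 and 3. Lamp1 had no TCACGTGA but 4 copies of CACGTG, more than any other member window, and its last 70 bases before the start are shown for that.
Lamp1 (chr8:13159091-13159160, plus strand): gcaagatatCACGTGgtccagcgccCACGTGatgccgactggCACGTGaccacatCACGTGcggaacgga
Of the 7 members with TCACGTGA, averaged over both lines at 12 h, Atp6v0d1 rose, Ctsa and Gla fell, and Atp6v0e, Atp6v1a, Ctsd and Mcoln1 did not pass. In other comparisons Ctsd rose at 12 h in KD and Mcoln1 was lower at 24 h. A match describes letters in a window and not a bound site.

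Among the proton pump genes every call at 12 h, averaged over both lines, was upward. Of the 16 members, 6 rose and 0 fell, or 37.5% beside 25.2% of all genes (13% higher and 12.3% lower), with a median log2 change of 0.37. At 24 h 3 were higher and 2 lower than control, beside 17.7% of all genes (9.99% higher and 7.76% lower), with a median of 0.14. From 12 h to 24 h 4 fell and none rose, or 25% beside 8.63% of all genes (5.14% higher and 3.49% lower), with a median of -0.31. Summed over the 16, the level at control, 12 h and 24 h averaged 2303 ± 188, 3041 ± 282 and 2492 ± 162 CPM in KD. In NC it averaged 2145 ± 118, 2705 ± 301 and 2291 ± 248 CPM (SD, n = 3 each). Given the transcript structure above, these sums of counts are not read as amounts of RNA. Atp6v0d1 and Atp6v1b2, with group means of 494 to 742 and 543 to 812 CPM, weigh most in them.

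In the V0 sector, Atp6v0a1, the a subunit that carries protons through the membrane, had 35.6, 43.3 and 41.8 CPM in controls, then 93.5, 91.5 and 88.1 CPM after 12 h and 66.03, 62.4 and 58.6 CPM after 24 h in KD, with the gene at chr11:101009452-101063719 on the plus strand. In NC libraries it stood at 38.6, 39.1 and 43.7 CPM in controls, then 64.6, 61.4 and 58.9 CPM after 12 h and 61.8, 59.7 and 50.6 CPM after 24 h. All treated libraries of both lines lay above all controls, and at 12 h the KD libraries lay above the NC libraries. The average change was 0.89 ± 0.10, adjusted p = 6.49e-07 at 12 h and 0.57 ± 0.10, adjusted p = 0.00036 at 24 h. At 12 h it was 1.18 ± 0.15, adjusted p = 3.83e-06 in KD and 0.61 ± 0.15, adjusted p = 0.0069 in NC. The 24 h change was 0.63 ± 0.15, adjusted p = 0.00617 in KD (adjusted p = 0.0505 without KD control library 1) and 0.50 ± 0.15, adjusted p = 0.0366 in NC, the second not past the threshold in 11 of 18 fits without 1 library, up to adjusted p = 0.134 without NC 24 h library 2. In KD it fell from 12 h to 24 h (-0.55 ± 0.14, adjusted p = 0.0296), a call not past the threshold in 6 of 18 fits without 1 library, up to adjusted p = 0.111 without KD 24 h library 3. KD was higher than NC at 12 h (0.56 ± 0.14, adjusted p = 0.0486), a call not past the threshold in 14 of 18 fits without 1 library, up to adjusted p = 0.185 without NC 12 h library 3. With limma on log2(TPM + 1) the KD rise and the average rise at 12 h passed, while the NC rise at 12 h (adjusted p = 0.103), the 24 h rises in KD (0.203) and NC (0.470), the fall from 12 h to 24 h in KD (0.0632) and the line difference at 12 h (0.161) did not.

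Of the other V0 members, Atp6v0d1, the d subunit that joins both sectors, rose at 12 h (0.46 ± 0.14, adjusted p = 0.0193), a call not past the threshold in 5 of 18 fits without 1 library, up to adjusted p = 0.0622 without KD 12 h library 1. Atp6v0c, the c subunit of the rotating ring, fell from 12 h to 24 h (-0.35 ± 0.10, adjusted p = 0.0329), a call not past the threshold in 4 of 18 fits without 1 library, up to adjusted p = 0.103 without KD 12 h library 1. It has processed copies in the genome, of which Atp6v0c-ps2 held 432 counts against 10606 for the gene itself, and reads may be shared. Atp6v0b and Atp6v0e, which also belong to the V0 sector, passed in no comparison, but with the library number as a block Atp6v0b rose at 12 h in KD (adjusted p = 0.04) and NC (0.00205). Group means were 494 to 742 CPM for Atp6v0d1, 97.2 to 134 for Atp6v0c, 31.7 to 54.7 for Atp6v0b and 16.8 to 23.3 for Atp6v0e.

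Atp6v0d2 is an alternative d subunit used by macrophages and osteoclasts. Of the members it had the largest difference between the lines over the 3 times. In KD libraries it stood at 28.8, 30.8 and 33.1 CPM in controls, then 43.4, 35.9 and 31.5 CPM after 12 h and 19.6, 14.2 and 12.4 CPM after 24 h, with the gene at chr4:19876841-19922605 on the minus strand. NC cells had 92.7, 94.7 and 72.9 CPM in controls, then 67.8, 76.3 and 75.3 CPM after 12 h and 51.7, 59.5 and 80.1 CPM after 24 h. All 9 KD libraries lay below all 9 NC libraries, and the KD libraries at 24 h lay below the other KD libraries. KD minus NC was -1.51 ± 0.11, adjusted p = 1.31e-08 over the 3 times, -1.49 ± 0.20, adjusted p = 7.34e-05 in controls and -2.04 ± 0.21, adjusted p = 6.3e-06 at 24 h. At 12 h the difference was -0.99 ± 0.19, adjusted p = 0.00815, with adjusted p = 0.064 without KD 12 h library 3 and 0.170 with limma on log2(TPM + 1). With time it fell at 24 h in KD against control (-0.99 ± 0.21, adjusted p = 0.0022) and against 12 h (-1.25 ± 0.21, adjusted p = 0.000459), and on average (-0.72 ± 0.14, adjusted p = 0.000669). At 24 h in NC it was -0.44 ± 0.19, adjusted p = 0.187, which passed with the library number as a block (adjusted p = 0.0362). Osteoclast markers, a cell type that uses this subunit, summed over 5 genes to 93.5 to 140.4 CPM at control in KD and 76.4 to 102.9 CPM at control in NC. At 12 h they summed to 40.8 to 56.7 CPM in KD and 26.8 to 42.3 CPM in NC, the lowest of the 3 times, and at 24 h to 57.5 to 73.6 CPM in KD and 42.4 to 58.5 CPM in NC. Ocstamp, with a mean of 54.0 CPM, and Dcstamp, with 12.4 CPM, made up most of the sum, Nfatc1 had 27 counts, and Calcr and Oscar had 0. At 12 h Dcstamp rose (0.54 ± 0.18, adjusted p = 0.0337) and Ocstamp fell (-1.98 ± 0.17, adjusted p = 4.96e-09). Their part in the result was not tested.

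In the V1 sector, Atp6v1h, the H subunit that couples ATP hydrolysis to the assembled pump, had 53.2, 65.7 and 49.7 CPM in controls, then 87.3, 109 and 110.3 CPM after 12 h and 61.1, 85.8 and 67.9 CPM after 24 h in KD, with the gene at chr1:5070018-5162529 on the plus strand. For NC the values were 37.98, 48.98 and 43.1 CPM in controls, then 77.7, 95.7 and 84.2 CPM after 12 h and 55.2, 65.9 and 56.5 CPM after 24 h. At 12 h all libraries of both lines lay above all controls, and at 24 h the KD libraries overlapped their controls. The average rise at 12 h was 0.92 ± 0.12, adjusted p = 3.99e-06, with 0.86 ± 0.17, adjusted p = 0.000966 in KD and 0.98 ± 0.17, adjusted p = 0.000377 in NC. At 24 h it was 0.40 ± 0.12, adjusted p = 0.0259, a call not past the threshold in 8 of 18 fits without 1 library, up to adjusted p = 0.128 without KD 24 h library 2. From 12 h to 24 h it fell (-0.52 ± 0.12, adjusted p = 0.00633).

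Atp6v1b2, the B subunit that shares the ATP-binding sites, had 602, 621 and 717 CPM in controls, then 805, 765 and 867 CPM after 12 h and 638, 584 and 603 CPM after 24 h in KD, with the gene at chr8:69088646-69113711 on the plus strand. The values in NC were 629, 613 and 642 CPM in controls, then 675, 638 and 768 CPM after 12 h and 491, 547 and 591 CPM after 24 h. In each line the 24 h libraries lay below the 12 h libraries, and the average fall was -0.38 ± 0.10, adjusted p = 0.0123. By line the difference was -0.42 ± 0.14, adjusted p = 0.103 in KD and -0.35 ± 0.14, adjusted p = 0.223 in NC, and with the library number as a block both passed (adjusted p = 0.000261 and 0.00234). At 12 h against control the average difference was 0.24 ± 0.10, adjusted p = 0.0814. Of the other V1 members, the F subunit Atp6v1f (0.65 ± 0.21, adjusted p = 0.024) and the stalk subunit Atp6v1g1 (0.33 ± 0.11, adjusted p = 0.0259) rose at 12 h. The first was not past the threshold in 6 of 18 fits without 1 library, up to adjusted p = 0.0818 without KD 12 h library 1, and the second not past the threshold in 6 of 18 fits without 1 library, up to adjusted p = 0.101 without NC 12 h library 3. Atp6v1c1, whose C subunit detaches when the pump disassembles, was lower at 24 h (-0.36 ± 0.11, adjusted p = 0.0287), a call not past the threshold in 5 of 18 fits without 1 library, up to adjusted p = 0.0667 without KD 24 h library 1. The catalytic A subunit Atp6v1a, the D subunit Atp6v1d and the stalk subunit Atp6v1e1 passed in no comparison without the block. With the library number as a block Atp6v1a rose at 12 h in KD (adjusted p = 0.000348), fell from 12 h to 24 h in KD (0.0153), was lower at 24 h in NC (0.045) and was higher in KD than NC at 12 h (0.000861), and Atp6v1d was higher at 24 h in NC (0.0459). Atp6v1a had an SE of 0.30 at 12 h, and its library 2 was the highest of the 3 in all 6 groups, for example 18.1, 45.7 and 19.6 CPM in KD controls and 16.5, 40.9 and 27.4 CPM in NC controls. Group means were 30.4 to 57.3 CPM for Atp6v1f, 169 to 223 for Atp6v1g1, 78.04 to 111 for Atp6v1c1, 20.6 to 43.7 for Atp6v1a, 177 to 299.7 for Atp6v1d and 24.8 to 32.5 for Atp6v1e1.

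Of the accessory proteins, Atp6ap2, the prorenin receptor that helps the pump assemble, had 107, 145 and 129 CPM in controls, then 182, 219 and 219 CPM after 12 h and 167, 214 and 194 CPM after 24 h in KD, with the gene at chrX:12587801-12617049 on the plus strand. NC gave 83.3, 139 and 108 CPM in controls, then 149.7, 175 and 208 CPM after 12 h and 139, 178 and 164 CPM after 24 h. Within each line the treated libraries lay above the controls at both times, in NC at 24 h only just (139.3 against 138.5 CPM). The rise averaged 0.70 ± 0.13, adjusted p = 0.000289 at 12 h and 0.57 ± 0.13, adjusted p = 0.00311 at 24 h. At 12 h it was 0.70 ± 0.18, adjusted p = 0.0101 in KD (adjusted p = 0.071 without KD control library 1) and 0.69 ± 0.19, adjusted p = 0.0144 in NC, the second not past the threshold in 3 of 18 fits without 1 library, up to adjusted p = 0.119 without NC 12 h library 3. The 24 h rise in KD (0.59 ± 0.18, adjusted p = 0.0436) was not past the threshold in 12 of 18 fits without 1 library, up to adjusted p = 0.201 without KD control library 1. In NC at 24 h the difference did not pass (adjusted p = 0.0789), but did with the library number as a block (3.9e-05). Atp6ap1, the other accessory protein, passed in no comparison without the block, with group means of 43.04 to 73.9 CPM. It rose with the block in KD at 12 h (adjusted p = 4.21e-05) and 24 h (0.042) and was higher in KD than NC at 12 h (0.00502). On log2(TPM + 1), limma gave Atp6v0a1, Atp6ap2 and Atp6v1h the same direction at 24 h, averaged over both lines, with adjusted p of 0.0810, 0.160 and 0.454. On that scale the rises of Atp6ap2 within a line did not pass either, with adjusted p of 0.0777 at 12 h and 0.390 at 24 h in KD and 0.145 at 12 h in NC.

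**Figure D3:**
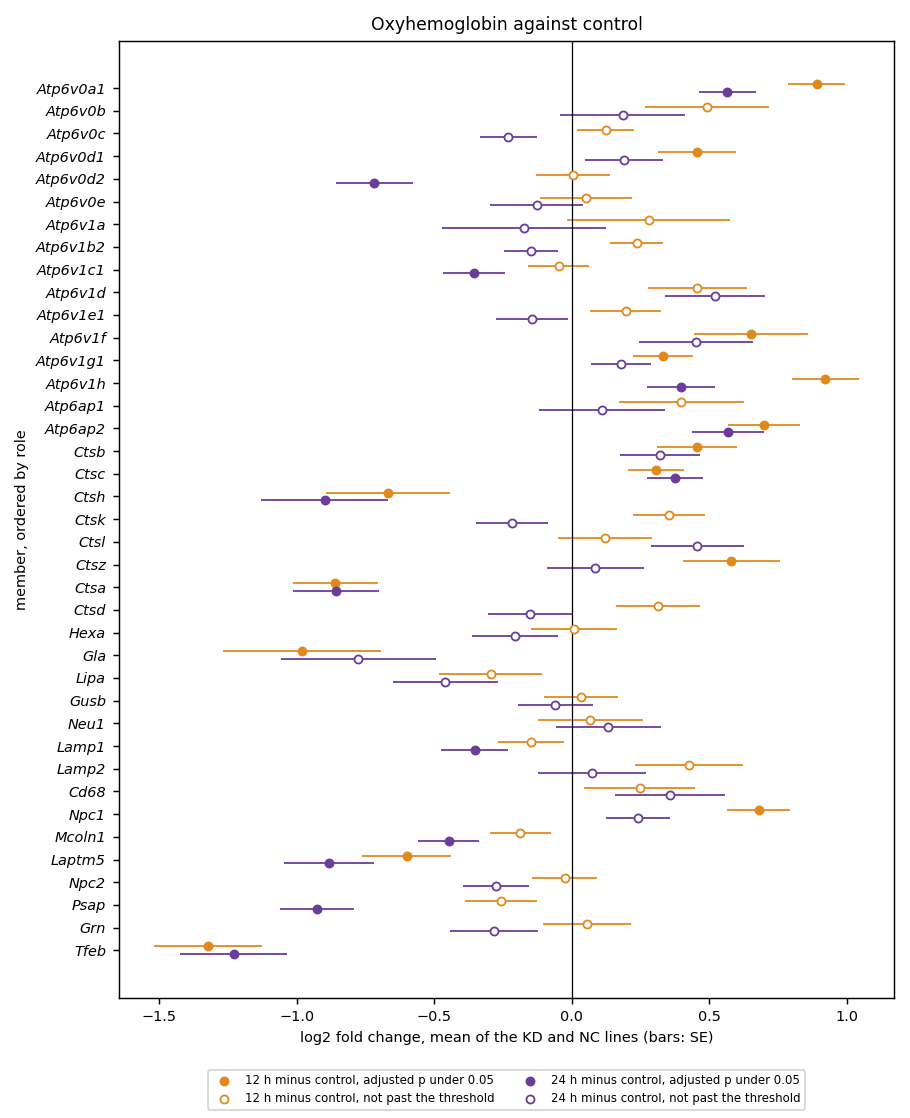
Log2 fold change at 12 h (orange) and 24 h (purple) of oxyhemoglobin minus control, averaged over the KD and NC lines, for 39 members ordered by role. Bars are SE, and filled points passed an adjusted p of 0.05. The 6 filled proton pump points at 12 h lie right of 0, and Tfeb lies farthest left at both times.

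The cathepsins moved in both directions. Of the 8 tested, 3 rose and 2 fell at 12 h (25.2% of all genes were called), 1 was higher and 2 lower at 24 h (17.7% of all genes), and 1 fell from 12 h to 24 h (8.63% of all genes). Ctsb and Ctsz, both cysteine proteases, held 89.1 to 93.3% of the CPM of the 9 cathepsins in the libraries, a share of counts that, given the transcript structure above, is not read as a share of RNA. The summed level of the 9 at control, 12 h and 24 h averaged 11051 ± 1789, 14295 ± 3113 and 12284 ± 1833 CPM in KD, and 9719 ± 2015, 14525 ± 2776 and 11952 ± 2354 CPM in NC (SD, n = 3 each).

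Ctsb had group means of 5974 to 8763 CPM and Ctsz of 2839 to 4683 CPM. Both rose at 12 h, Ctsb (0.46 ± 0.15, adjusted p = 0.0238) as well as Ctsz (0.58 ± 0.18, adjusted p = 0.0184). Library 2 was the lowest of its group for both in all 6 groups, and groups overlapped within each line. The Ctsb call was not past the threshold in 6 of 18 fits without 1 library, up to adjusted p = 0.0742 without KD 12 h library 1. The Ctsz call was not past the threshold in 4 of 18 fits without 1 library, up to adjusted p = 0.069 without KD 12 h library 1. At 24 h against control neither passed on average (0.32 ± 0.15 for Ctsb and 0.09 ± 0.18 for Ctsz). With the library number as a block, Ctsb rose at 12 h in KD (adjusted p = 0.00422) and NC (4.06e-05). Ctsz rose likewise in KD (0.000217) and NC (2.3e-08). The block also called Ctsb higher at 24 h in KD (0.0426) and NC (0.00363). It called Ctsz lower at 24 h than at 12 h in KD (0.000547) and NC (3.59e-05). Of the exon bases of Ctsb, 12.8% also belong to Fdft1 on the other strand, and no label or note says whether the libraries kept strand.

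Ctsc, the dipeptidyl peptidase that activates serine proteases of granules, had 284, 329 and 331 CPM in controls, then 365, 375 and 403 CPM after 12 h and 370.1, 379.8 and 386 CPM after 24 h in KD, with the gene at chr7:88278085-88310888 on the plus strand. The NC libraries had 313, 349 and 319 CPM in controls, then 392, 403 and 444 CPM after 12 h and 368, 469 and 535 CPM after 24 h. All treated libraries of both lines lay above all controls. The rise averaged 0.31 ± 0.10, adjusted p = 0.0308 at 12 h, a call not past the threshold in 7 of 18 fits without 1 library, up to adjusted p = 0.0931 without NC 12 h library 3. At 24 h it averaged 0.38 ± 0.10, adjusted p = 0.0118 (adjusted p = 0.0525 without NC 24 h library 3). In NC at 24 h it was 0.48 ± 0.15, adjusted p = 0.0416, a call not past the threshold in 15 of 18 fits without 1 library, up to adjusted p = 0.245 without NC 24 h library 3. On log2(TPM + 1), limma gave the average rises adjusted p of 0.0859 at 12 h and 0.305 at 24 h.

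Ctsa, the carboxypeptidase also called protective protein that stabilizes the sialidase and the beta-galactosidase of lysosomes, fell. KD cells had 88.2, 74.1 and 102 CPM in controls, then 54.0, 37.9 and 64.9 CPM after 12 h and 60.2, 39.96 and 68.4 CPM after 24 h, with the gene at chr2:164832873-164841032 on the plus strand. In NC libraries it stood at 94.5, 79.5 and 91.7 CPM in controls, then 49.8, 35.2 and 50.9 CPM after 12 h and 38.2, 36.9 and 51.4 CPM after 24 h. All 12 treated libraries lay below all 6 controls. The average change was -0.86 ± 0.16, adjusted p = 0.0002 at 12 h and -0.86 ± 0.16, adjusted p = 0.000331 at 24 h. At 12 h it was -0.75 ± 0.22, adjusted p = 0.0209 in KD, a call not past the threshold in 3 of 18 fits without 1 library, up to adjusted p = 0.106 without KD 12 h library 2, and -0.97 ± 0.22, adjusted p = 0.00441 in NC. At 24 h it was -1.07 ± 0.22, adjusted p = 0.00309 in NC, while in KD it was -0.65 ± 0.22, adjusted p = 0.0683, or adjusted p = 3.48e-05 with the library number as a block. Of its exon bases, 17.4% also belong to Neurl2 or Pltp on the other strand, and Neurl2 had 6236 counts. On log2(TPM + 1) the KD fall at 12 h had an adjusted p of 0.0523 with limma. Both of its TCACGTGA matches are among the sequences shown above.

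Ctsh, an aminopeptidase among the cysteine cathepsins, was low, with 444 counts over all libraries. For KD the values were 6.19, 5.95 and 4.16 CPM in controls, then 2.59, 2.403 and 3.99 CPM after 12 h and 1.93, 2.09 and 2.62 CPM after 24 h, with the gene at chr9:90054152-90076089 on the plus strand. NC cells had 7.09, 7.26 and 8.58 CPM in controls, then 6.98, 5.39 and 4.16 CPM after 12 h and 7.09, 5.46 and 3.87 CPM after 24 h. Treated libraries lay below the controls of their own line at both times, in NC at 24 h only just (7.092 against 7.095 CPM). At each time the KD libraries lay below the NC libraries. The average change was -0.90 ± 0.23, adjusted p = 0.00761 at 24 h and -0.67 ± 0.22, adjusted p = 0.0315 at 12 h, the 12 h call not past the threshold in 7 of 18 fits without 1 library, up to adjusted p = 0.0763 without NC 12 h library 3, and with an adjusted p of 0.0619 with limma on log2(TPM + 1). In KD at 24 h it was -1.30 ± 0.34, adjusted p = 0.0159, a call not past the threshold in 4 of 18 fits without 1 library, up to adjusted p = 0.0784 without KD 24 h library 1. Neither NC at 12 h or 24 h nor KD at 12 h passed. Over the 3 times KD was lower than NC (-0.88 ± 0.19, adjusted p = 0.00369). No single time passed, with adjusted p = 0.0643 at 24 h, or 0.0164 with the library number as a block.

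Ctsl, an endopeptidase of lysosomes and of antigen processing, was lower in KD. The KD libraries had 12.6, 13.6 and 12.7 CPM in controls, then 18.6, 16.8 and 19.5 CPM after 12 h and 18.7, 19.9 and 20.7 CPM after 24 h, with the gene at chr13:64359337-64370890 on the minus strand. For NC the values were 21.9, 31.7 and 31.7 CPM in controls, then 33.3, 16.5 and 21.997 CPM after 12 h and 28.9, 29.2 and 47.3 CPM after 24 h. The lines did not overlap in controls or after 24 h, but did after 12 h, and in KD the treated libraries lay above their controls. KD was lower over the 3 times (-0.78 ± 0.14, adjusted p = 0.000683) and in controls (-1.13 ± 0.24, adjusted p = 0.0118), the second not past the threshold in 4 of 18 fits without 1 library, up to adjusted p = 0.0586 without NC control library 3. Of its exon bases, 26.8% also belong to Gm47123 or Gm49230, both listed at 0 counts. On log2(TPM + 1) the difference in controls had an adjusted p of 0.120 with limma. With time it did not pass, at 0.12 ± 0.17, adjusted p = 0.674 at 12 h and 0.46 ± 0.17, adjusted p = 0.069 at 24 h on average, and 0.61 ± 0.25, adjusted p = 0.143 in KD at 24 h, which passed with the library number as a block (adjusted p = 0.0432).

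Ctsk, the collagen-degrading cathepsin of osteoclasts, was higher in KD over the 3 times. In KD libraries it stood at 705, 545 and 815 CPM in controls, then 982, 731 and 837 CPM after 12 h and 637, 480.2 and 558 CPM after 24 h, with the gene at chr3:95499256-95509362 on the plus strand. NC values were 494, 359.5 and 440.3 CPM in controls, then 605, 469 and 638 CPM after 12 h and 434, 325 and 419.8 CPM after 24 h. The lines did not overlap at any of the 3 times, and in each line the 24 h libraries lay below the 12 h libraries. The difference over the 3 times was 0.59 ± 0.11, adjusted p = 0.000887. No single time passed, with 0.67 ± 0.19, adjusted p = 0.0623 at control, 0.57 ± 0.19, adjusted p = 0.145 at 12 h and 0.51 ± 0.19, adjusted p = 0.218 at 24 h, and with the library number as a block all 3 passed, with an adjusted p of 4.85e-06 at 12 h, where the numbers pair the lines. From 12 h to 24 h it fell on average (-0.57 ± 0.13, adjusted p = 0.00599), and against control it did not pass at 12 h (0.35 ± 0.13, adjusted p = 0.0509) or 24 h (-0.22 ± 0.13, adjusted p = 0.294).

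Ctsd, the aspartic protease that is a main lysosomal endopeptidase, had group means of 14.6 to 34.9 CPM. It was higher in KD over the 3 times (0.48 ± 0.13, adjusted p = 0.0159) and at 24 h (0.89 ± 0.22, adjusted p = 0.0438), the second not past the threshold in 10 of 18 fits without 1 library, up to adjusted p = 0.158 without NC 24 h library 2. In KD it rose at 12 h (0.73 ± 0.21, adjusted p = 0.0207), a call not past the threshold in 3 of 18 fits without 1 library, up to adjusted p = 0.116 without KD control library 2. At 24 h the KD libraries had 29.4, 23.4 and 28.3 CPM and the NC libraries 15.2, 12.6 and 16.02 CPM, without overlap. In NC at 24 h Ctsd did not pass against control (adjusted p = 0.0713), but was lower with the library number as a block (adjusted p = 0.0034). Under the block it also fell from 12 h to 24 h in NC (0.021) and was higher in KD than NC at 12 h (0.00202). Of its exon bases, 34.4% also belong to Gm49369 on the same strand, listed at 0 counts.

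**Figure D4:**
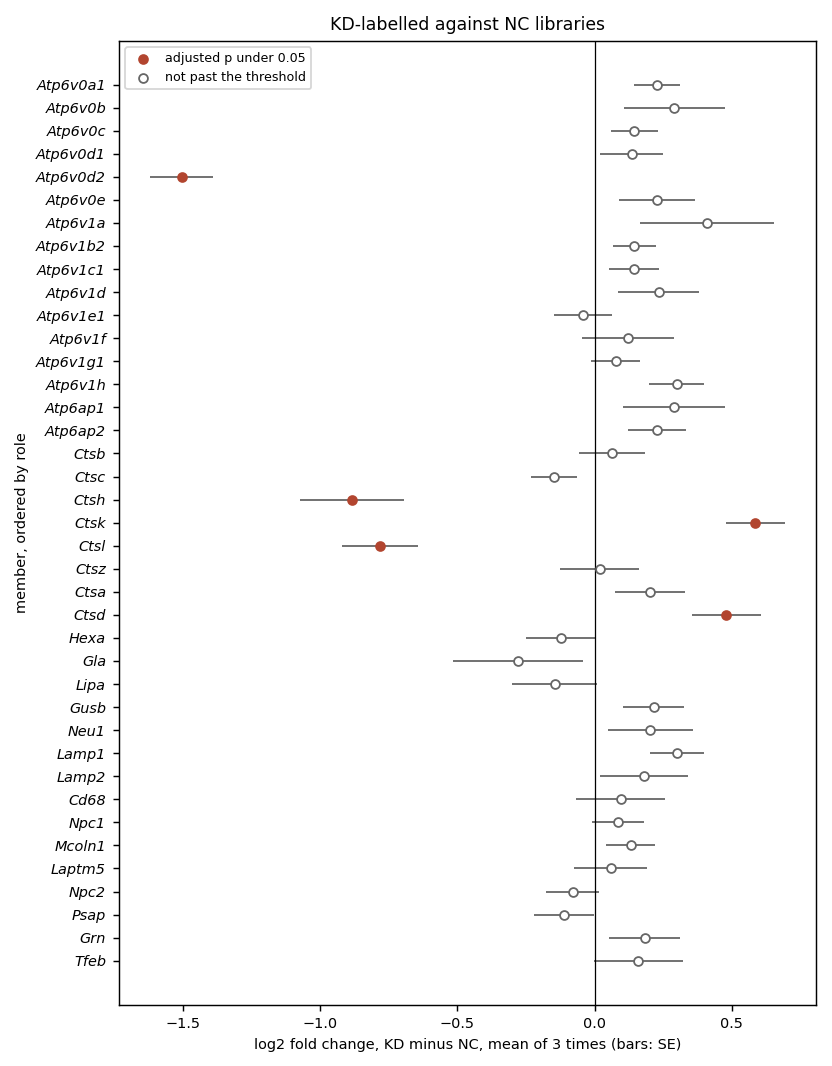
Log2 fold change of KD minus NC, averaged over 3 times, for 39 members ordered by role. Bars are SE, and filled points passed an adjusted p of 0.05. Atp6v0d2 lies farthest left at -1.51, with Ctsh and Ctsl also left of 0 and Ctsk and Ctsd right of it.

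Of the 5 glycosidases and lipases, 1 fell at 12 h on average, or 20% beside 25.2% of all genes, and none passed at 24 h, beside 17.7% of all genes. Gla, the alpha-galactosidase deficient in Fabry disease, was low, with 503 counts over all libraries. KD cells had 5.34, 6.403 and 10.2 CPM in controls, then 4.32, 2.96 and 2.94 CPM after 12 h and 5.604, 1.67 and 5.72 CPM after 24 h, with the gene at chrX:134588149-134601125 on the minus strand. NC gave 7.93, 6.43 and 11.2 CPM in controls, then 6.75, 3.23 and 4.16 CPM after 12 h and 4.05, 3.58 and 6.81 CPM after 24 h. At 12 h the KD libraries lay below their controls, and the NC libraries overlapped theirs. The change was -0.98 ± 0.29, adjusted p = 0.0138 at 12 h and -0.78 ± 0.28, adjusted p = 0.062 at 24 h. In KD at 12 h it was -1.10 ± 0.41, adjusted p = 0.077, or adjusted p = 0.0109 with the library number as a block. Lipa, the acid lipase of cholesteryl esters, was lower at 24 h in KD (-0.94 ± 0.27, adjusted p = 0.0292), a call not past the threshold in 3 of 18 fits without 1 library, up to adjusted p = 0.154 without KD control library 1, with 5.78, 4.81 and 7.38 CPM at 24 h against 14.3, 10.5 and 9.78 CPM at control, and group means of 5.99 to 11.5 CPM. The beta-hexosaminidase subunit Hexa, the beta-glucuronidase Gusb and the sialidase Neu1 passed in no comparison without the block, with group means of 780.4 to 1039, 60.1 to 78.3 and 51.5 to 67.3 CPM. Hexa was lower at 24 h in KD with the library number as a block (adjusted p = 0.00581).

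Of the 6 membrane proteins, 1 rose and 1 fell at 12 h, beside 25.2% of all genes called, and 3 were lower at 24 h, beside 17.7% of all genes (7.76% lower). Npc1, the transporter that moves cholesterol out of the lysosome, rose at 12 h. For KD the values were 209, 185 and 193 CPM in controls, then 389, 320.3 and 286 CPM after 12 h and 302, 235 and 242 CPM after 24 h, with the gene at chr18:12189692-12236400 on the minus strand. The NC libraries had 247, 194 and 180.3 CPM in controls, then 337, 273 and 331 CPM after 12 h and 233, 193 and 228 CPM after 24 h. At 12 h all libraries lay above all controls. The rise was 0.68 ± 0.12, adjusted p = 9.64e-05 on average, 0.76 ± 0.16, adjusted p = 0.00192 in KD and 0.60 ± 0.16, adjusted p = 0.0164 in NC, the last not past the threshold in 4 of 18 fits without 1 library, up to adjusted p = 0.0992 without NC control library 3. It fell from 12 h to 24 h (-0.44 ± 0.12, adjusted p = 0.0162, adjusted p = 0.0554 without KD 12 h library 1). At 24 h against control the difference was 0.24 ± 0.12, adjusted p = 0.169, and in KD alone 0.41 ± 0.16, adjusted p = 0.133, which passed with the library number as a block (adjusted p = 0.00103). Of its exon bases, 5.3% also belong to Rmc1, with 3056 counts, or Gm15956, with 438. Npc2, the soluble partner that hands cholesterol to it, passed in no comparison without the block, with group means of 135 to 176 CPM. With the library number as a block it was lower at 24 h in KD (adjusted p = 0.00669) and fell from 12 h to 24 h in NC (0.0226).

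Laptm5, a membrane protein of blood-cell lysosomes, fell. The KD libraries had 524, 431 and 653 CPM in controls, then 353, 261 and 397 CPM after 12 h and 309.6, 247 and 328 CPM after 24 h, with the gene at chr4:130913125-130936141 on the plus strand. In NC libraries it stood at 554, 363 and 594 CPM in controls, then 376, 266 and 403 CPM after 12 h and 284, 192 and 332 CPM after 24 h. At 24 h all libraries lay below all controls, and at 12 h the NC libraries overlapped their controls. The average change was -0.60 ± 0.16, adjusted p = 0.00766 at 12 h and -0.88 ± 0.16, adjusted p = 0.000379 at 24 h. At 24 h it was -0.86 ± 0.23, adjusted p = 0.0167 in KD and -0.90 ± 0.23, adjusted p = 0.0152 in NC. The KD call had adjusted p = 0.0839 without KD control library 3 and adjusted p = 0.0731 without KD 24 h library 2, and the NC call adjusted p = 0.0736 without NC 24 h library 2 and adjusted p = 0.0685 without NC control library 3. The KD call at 12 h (-0.67 ± 0.23, adjusted p = 0.0491) was not past the threshold in 6 of 18 fits without 1 library, up to adjusted p = 0.197 without KD control library 3. In NC at 12 h it was -0.53 ± 0.23, adjusted p = 0.15, or adjusted p = 4.9e-06 with the library number as a block.

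Mcoln1, the calcium channel of the lysosomal membrane that can activate TFEB through calcineurin, had 148, 139 and 159 CPM in controls, then 134, 120.0 and 134 CPM after 12 h and 91.6, 88.1 and 113 CPM after 24 h in KD, with the gene at chr8:3500457-3515232 on the plus strand. NC cells had 147, 104 and 124 CPM in controls, then 112, 101 and 120.5 CPM after 12 h and 115, 100.4 and 92.98 CPM after 24 h. In KD the libraries at 24 h lay below those at 12 h, and those at 12 h below the controls, while the NC groups overlapped. The change at 24 h was -0.45 ± 0.11, adjusted p = 0.00572 on average and -0.61 ± 0.16, adjusted p = 0.0129 in KD (adjusted p = 0.0563 without KD 24 h library 2 and adjusted p = 0.0552 without KD 24 h library 1). In NC at 24 h it was -0.28 ± 0.16, adjusted p = 0.34. The lysosomal membrane glycoprotein Lamp1 was lower at 24 h (-0.35 ± 0.12, adjusted p = 0.0447), a call not past the threshold in 8 of 18 fits without 1 library, up to adjusted p = 0.0823 without KD control library 1, with group means of 1479 to 2371 CPM. Of its exon bases, 9.3% also belong to Grtp1 on the other strand, which had 2999 counts. Its partner Lamp2 and the macrophage glycoprotein Cd68 passed in no comparison without the block, with group means of 468 to 709 and 5.37 to 8.77 CPM. Under the block Lamp2 rose at 12 h in KD (adjusted p = 0.000411) and NC (0.00433) and fell from 12 h to 24 h in KD (0.0201) and NC (0.0317), and Cd68 rose at 12 h in NC (0.0415).

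Psap encodes prosaposin, which is cut into the saposins that present sphingolipids to hydrolases. In KD libraries it stood at 31.6, 32.3 and 26.01 CPM in controls, then 26.6, 27.2 and 26.9 CPM after 12 h and 11.6, 13.2 and 9.53 CPM after 24 h, with the gene at chr10:60277627-60302597 on the plus strand. For NC the values were 29.01, 27.5 and 25.7 CPM in controls, then 19.6, 19.9 and 24.8 CPM after 12 h and 23.8, 19.2 and 16.8 CPM after 24 h. The 3 KD libraries at 24 h lay below all 15 others, and the NC libraries at 24 h lay below their controls. In KD it fell at 24 h against control (-1.39 ± 0.19, adjusted p = 2.7e-05) and against 12 h (-1.23 ± 0.19, adjusted p = 0.00031), and on average at 24 h (-0.93 ± 0.13, adjusted p = 2.14e-05). In NC at 24 h it was -0.47 ± 0.19, adjusted p = 0.152, or adjusted p = 0.0362 with the library number as a block. KD was lower than NC at 24 h (-0.79 ± 0.20, adjusted p = 0.0431), a call not past the threshold in 16 of 18 fits without 1 library, up to adjusted p = 0.224 without KD 24 h library 3, and 0.341 with limma on log2(TPM + 1). The 24 h response did not pass as different between the lines without the block (-0.92 ± 0.27, adjusted p = 0.457). Of the exon bases of Psap, 96 belong to 1 annotated transcript only, and the part of this in the change was not tested. Grn, the gene of progranulin, passed in no comparison without the block, with group means of 78.8 to 126 CPM. With the library number as a block it rose at 12 h in KD (adjusted p = 0.0467), fell from 12 h to 24 h in KD (0.036) and NC (0.0177) and was lower at 24 h in NC (0.000388).

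**Figure D5:**
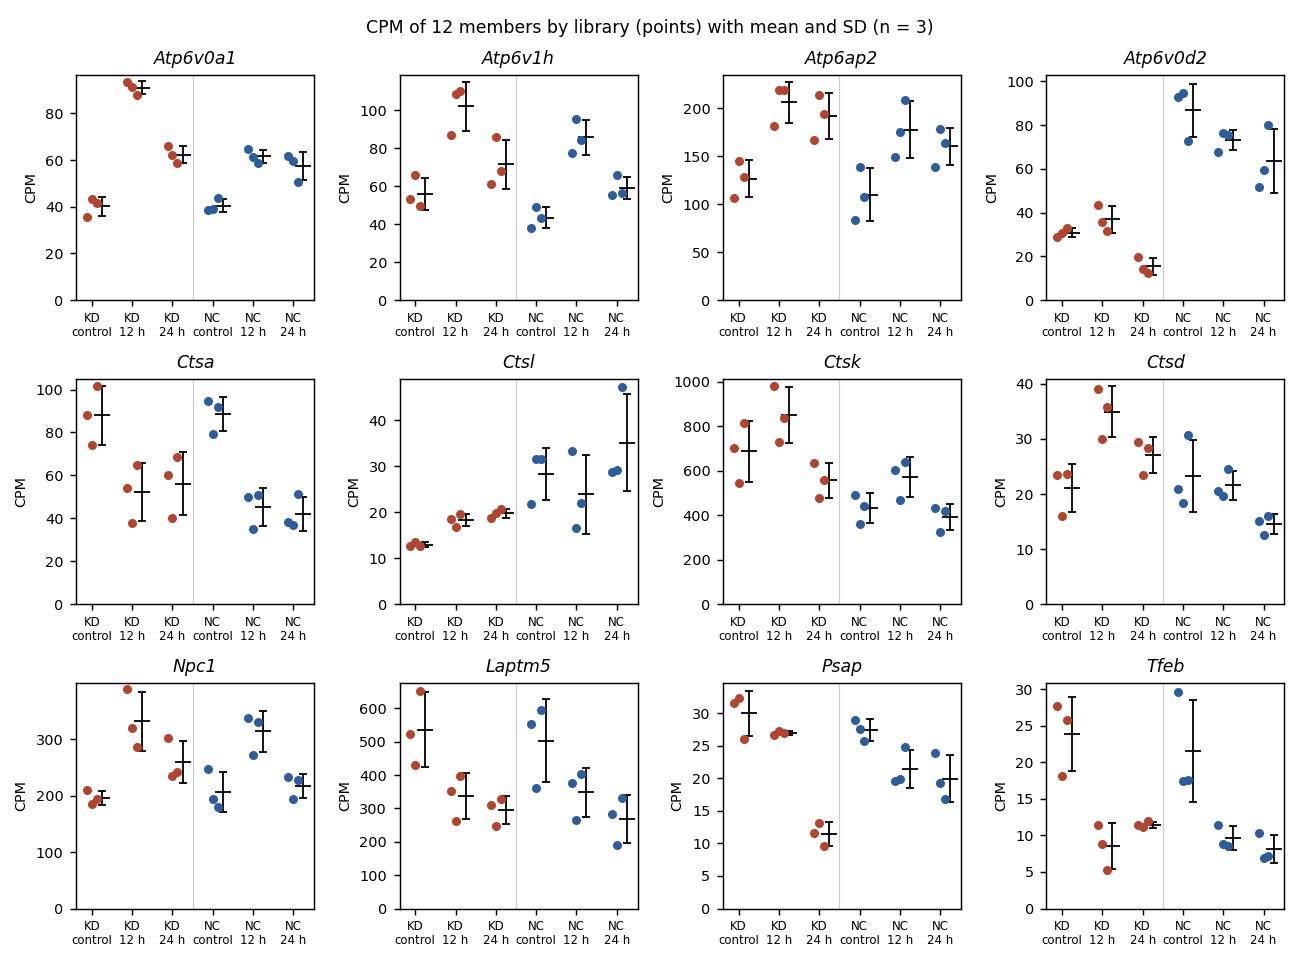
CPM of 12 members in each library (points, KD red and NC blue, at control, 12 h and 24 h), with the mean and SD of 3 libraries beside them. Tfeb and Ctsa lie lower in treated than in control libraries of both lines, Atp6v0d2 lies lower in all KD than in all NC libraries, and Psap lies lowest at 24 h in KD.

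Whether the lines responded differently was tested with the interaction of line and time. For the 12 h response edgeR called 0 members, beside 0.075% of all genes (0.0625% higher and 0.0125% lower), with 4 members at an unadjusted p under 0.05. For the 24 h response it called 0 members, beside 0.0313% of all genes (0.025% higher and 0.00625% lower), with 3 members at an unadjusted p under 0.05, and DESeq2 called 0 for either. The lowest adjusted p was 0.607 for Ctsd at 12 h and 0.457 for Psap at 24 h. The KD response minus the NC response was 0.84 ± 0.30 for Ctsd at 12 h and 1.04 ± 0.31 at 24 h. With the library number as a block Ctsd passed at 12 h (adjusted p = 0.0313) and 24 h (0.00958), Atp6v1a at 12 h (0.0448) and Psap at 24 h (0.0399). The block called 2.07% of all genes at 12 h and 1.21% at 24 h, and the numbers were not taken to pair libraries in this test. Between the lines at single times, 0 members were higher and 2 lower in KD controls than in NC controls, beside 2.06% of all genes (0.763% higher and 1.3% lower). At 12 h 1 was higher and 1 lower, beside 1.6% (0.5% higher and 1.1% lower), and at 24 h 1 was higher and 2 lower, beside 1.39% (0.469% higher and 0.925% lower). The microglia markers, summed, were at 552 to 568 CPM in KD and 389 to 435 CPM in NC controls, 631 to 739 CPM in KD and 518 to 575 CPM in NC at 12 h, and 499 to 553 CPM in KD and 394 to 446 CPM in NC at 24 h. The lines did not overlap in that sum, and its part in the member differences was not tested. Spi1 and Ptprc made up most of it, and the 9 tested markers moved both ways. On average 3 rose and 2 fell at 12 h (median -0.23), and 2 were higher and 2 lower at 24 h (median -0.42), beside 25.2% and 17.7% of all genes. Over the 3 times 2 were higher and 0 lower in KD (median 0.29), beside 9.99%. The count of members between the lines at 12 h became 7 with the library number as a block, 6 higher and 1 lower, beside 10.9% of all genes. At control the 2 calls became 1 without any of NC control libraries 2 and 3 and KD control libraries 1 and 3. The 2 calls at 12 h became 0 without KD 12 h library 3 and stayed 2 only without KD control library 2 or NC control library 1 or NC 24 h library 1 or 3. They became 1 in the other 13 fits without 1 library. The 3 calls at 24 h became 1 without KD control library 1, KD 12 h library 1 or 3, any of the 3 KD 24 h libraries, NC 12 h library 1, or NC 24 h library 1 or 2. On log2(TPM + 0.1), limma called 1 higher and 1 lower at control, 1 higher and 0 lower at 12 h, 3 higher and 1 lower at 24 h, and 4 higher and 3 lower over the 3 times. The median of all genes moved to 0.14 at 12 h and 0.10 at 24 h on that scale.

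Other lysosomal genes moved both ways too, and the counts of each list stand beside 25.2% of all genes called at 12 h and 17.7% at 24 h. Of 10 other V-ATPase genes tested of 16 listed, 3 rose and 0 fell at 12 h (30%, near the share of all genes), and none passed at 24 h. The assembly factor Vma21 rose by 1.00 ± 0.16 (adjusted p = 6.3e-05), the a2 subunit Atp6v0a2 by 0.45 ± 0.16 (0.0374) and the assembly factor Tmem199 by 0.48 ± 0.18 (0.0498). Vma21 was lower in KD over the 3 times (-0.69 ± 0.13, adjusted p = 0.00156), and Tcirg1, the a3 subunit of osteoclasts and macrophages, was higher in KD (0.52 ± 0.12, adjusted p = 0.00651). Of 10 other proteases and inhibitors tested of 14, 2 rose and 3 fell at 12 h (50%), and 1 was higher and 4 lower at 24 h (50%). At 12 h the changes were as follows. Ctsf, cathepsin F, changed by -1.71 ± 0.24 (adjusted p = 1.09e-05), the asparagine endopeptidase Lgmn, which processes cathepsins, by -1.08 ± 0.26 (0.00331) and the carboxypeptidase Prcp by -0.80 ± 0.14 (0.0002). The cysteine protease inhibitor Cstb rose by 1.04 ± 0.18 (0.000106) and the carboxypeptidase Scpep1 by 0.42 ± 0.12 (0.0123). The dipeptidyl peptidase Dpp7 was lower at 24 h (-0.80 ± 0.16, adjusted p = 0.00115).

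Of 33 other hydrolases tested of 35, 3 rose and 7 fell at 12 h (30.3%, near the 25.2% of all genes), and 4 were higher and 7 lower at 24 h. The activator of ganglioside breakdown Gm2a changed by -1.08 ± 0.13 (adjusted p = 1.11e-06) at 12 h, the acid nuclease Dnase2a by -0.99 ± 0.13 (2.36e-06) and the mannosidase Man2b1 by -0.84 ± 0.15 (0.000117). Both palmitoyl thioesterases rose, Ppt2 by 0.93 ± 0.22 (0.00227) and Ppt1 by 0.61 ± 0.16 (0.00795). In 20 other membrane proteins tested of 22, 7 rose and 4 fell at 12 h (55%, beside 25.2% of all genes), and 3 were higher and 5 lower at 24 h. The nucleoside transporter Slc29a3 changed by -0.68 ± 0.13 at 12 h (0.000308) and -1.35 ± 0.13 at 24 h (6.26e-08). The glucocerebrosidase receptor Scarb2 changed by -0.65 ± 0.09 (1.3e-05) and the cystine transporter Ctns by -1.09 ± 0.20 (0.000238) at 12 h. Mcoln2, a relative of Mcoln1, rose by 1.08 ± 0.15 (5.6e-06) and the metal transporter Slc11a1 by 1.10 ± 0.17 (2.1e-05). Slc38a9, the arginine sensor of the lysosome, was lower in KD (-0.56 ± 0.09, adjusted p = 0.000261).

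Among 12 sorting genes tested of 14, 1 rose and 1 fell at 12 h (16.7%, beside 25.2% of all genes) and none passed at 24 h. They were the adaptor subunit Ap1b1 (0.55 ± 0.18, adjusted p = 0.0222) and Gnptab, which makes the mannose 6-phosphate tag (-1.12 ± 0.39, adjusted p = 0.036). Of 11 relatives and regulators of TFEB tested of 13, 1 rose at 12 h (9.09%, beside 25.2% of all genes), and 1 was higher and 2 lower at 24 h (27.3%, beside 17.7%). Rraga, a GTPase that brings mTORC1 to the lysosome, rose at 12 h (0.62 ± 0.12, adjusted p = 0.000469) and 24 h (0.44 ± 0.12, adjusted p = 0.0125). Mitf, a relative of Tfeb, was lower at 24 h (-0.53 ± 0.14, adjusted p = 0.0107), as was Flcn, which controls the Rag GTPases (-0.56 ± 0.19, adjusted p = 0.0448). Its partner Fnip2 fell from 12 h to 24 h (-0.39 ± 0.11, adjusted p = 0.0257).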

How the data were processed

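The deposited table holds read counts and TPM per gene for 18 libraries of BV2 cells. HISAT2 2.2.0, featureCounts, DESeq2 and GRCm38 are named in the submitters' processing notes, without their roles, as what the authors used for them. The treatment of strand and of overlapping transcripts in the counts is not stated there. The deposited TPM values equal the counts over the deposited gene lengths, scaled to a common sum.

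From the counts, edgeR 4.0.16 in R 4.3.3 tested 15996 genes (TMM, at least 10 counts by filterByExpr) with its quasi-likelihood test over 6 group means fitted to all 18 libraries, for 15 comparisons, with Benjamini-Hochberg adjustment and a threshold of 0.05. The fit was tested on simulated data. CPM used TMM library sizes. Library totals were 4361313 to 6008810 counts. Pairs of libraries within a group differed by more than counting error, at a chi-square of 4.65 to 18.5 per degree of freedom. Members and gene lists were chosen with earlier results of these data known. Values in every library are given for up to 16 members by lowest adjusted p, including Tfeb, Mcoln1, Ctsk and Atp6v0d2 whatever theirs, and other lysosomal genes are the called ones, up to 6 a list by lowest adjusted p. Of these, 1 is not reported here. Same-numbered libraries deviated together within each line over time and between lines at 12 h (lowest correlation 0.108), so the number was taken to pair libraries there. The cutoff, set by choice, was a lowest correlation above 0.1. In the other comparisons, which also hold pairs across lines, every correlation was positive, but the lowest was 0.0703 to 0.0946. Alternatives were RLE size factors, other filters, DESeq2 1.42.0, limma 3.58.1 on log2(TPM + 1) and log2(TPM + 0.1), the compared groups alone, the library number as a block and leaving out libraries.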

Additional observations from a re-analysis of the deposited data

How the results depend on the processing

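Of 78 member calls over the comparisons, 78 were kept with RLE size factors, 78 with DESeq2, 78 with the library number as a block, 77 with a filter of 5 CPM, 64 with no filter and 59 on each TPM scale. With the compared groups fitted alone, 65 of 73 were kept. Without 1 library, 43 of the 78 passed in every fit, and no call reversed under any of these settings. The cause of each change was not tested. Depth limits low members such as Gla, with 503 counts, and Ctsh, with 444.

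Members called, in the order avg 12 h, avg 24 h and avg 24 h minus 12 h, were 15, 13 and 7. With the library number as a block they were 25, 28 and 22, beside 37.5%, 30.9% and 20.1% of all genes. The pairing check narrowly missed its cutoff for these averages, with lowest correlations of 0.0703, 0.0703 and 0.0946, and held for the same comparisons within each line. The same block gave 18, 17 and 13 in NC and 21, 22 and 14 in KD. Between the lines it gave 5 in controls, 7 at 12 h, 11 at 24 h and 19 over the 3 times. The block called 2 members for the line by time interaction at 12 h, namely Atp6v1a (adjusted p = 0.0448) and Ctsd (0.0313), and 2 at 24 h, namely Ctsd (0.00958) and Psap (0.0399), where edgeR without it called 0 and the pairing check did not hold. On log2(TPM + 1) and log2(TPM + 0.1) the counts were 19 and 20 for avg 24 h minus 12 h, 10 and 10 for NC 12 h, 5 and 5 for NC 24 h minus 12 h, 5 and 6 for KD 24 h minus 12 h, and 1 and 1 between the lines at 12 h. DESeq2 called 2 in NC and 5 in KD from 12 h to 24 h, and 8 between the lines over the 3 times. The 5 CPM filter gave 5 in KD from 12 h to 24 h, and no filter 1 between the lines at 12 h. The compared groups alone gave 3 at 24 h in NC, 1 between the lines at 12 h and 1 at 24 h. Without replicate 2 of any group, 3 were called at 24 h in NC, 5 at 24 h in KD, 0 between the lines at 12 h and 1 at 24 h.

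Leaving out each replicate in turn, the counts ranged from 9 to 17 for avg 12 h, 10 to 15 for avg 24 h and 5 to 9 for avg 24 h minus 12 h. They ranged from 4 to 9 at 12 h and 2 to 5 at 24 h in NC, and from 5 to 9 at 12 h, 4 to 10 at 24 h and 2 to 4 from 12 h to 24 h in KD. Between the lines they ranged from 1 to 3 in controls, 0 to 2 at 12 h, 1 to 3 at 24 h and 5 to 6 over the 3 times.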
